A study of Homo sapiens with 8 samples.

Results

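The genes of 10 enzymes that clear formaldehyde or carry one-carbon units through folate metabolism were followed in BEAS-2B, an established line of human bronchial epithelial cells, by RNA sequencing before and after immunoprecipitation of RNA that carries 8-oxo-7,8-dihydroguanine (8-oxoG), an oxidised form of guanine. The 10 genes are a list of enzyme names, taken out of 58735 genes summed from the transcript tables. They are ADH5, ESD, ALDH2, ALDH9A1, ALDH3A2, ALDH7A1, MTHFD1, MTHFD2, SHMT2 and ALDH1L2. All 10 were among the 18242 genes tested, for which 2 or more libraries had to reach a rounded count of 10, and 94 of their 155 listed isoforms were among the 67873 transcripts tested. Cultures at the air-liquid interface received 1 ppm formaldehyde (FA) or humidified clean air (CA) for 2 h and then recovered for 6 h in fresh medium. RNA depleted of ribosomal RNA was split into an input fraction (IN) and a fraction pulled down with an antibody against 8-oxoG (IP), which gave 4 groups of 2 biological replicates, numbered 1 and 3. The groups are called CA_IN, FA_IN, CA_IP and FA_IP.

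Formaldehyde binds glutathione spontaneously. ADH5 oxidises the adduct to S-formylglutathione, and ESD, an esterase that hydrolyses S-formylglutathione, then releases formate and returns the glutathione. ALDH2, the mitochondrial aldehyde dehydrogenase best known for acetaldehyde, can also oxidise free formaldehyde to formate. MTHFD1 in the cytosol attaches formate to tetrahydrofolate, while SHMT2, MTHFD2 and ALDH1L2 in mitochondria load, oxidise and release one-carbon units from serine. ALDH9A1, ALDH3A2 and ALDH7A1 act mainly on aldehydes of carnitine synthesis, of fatty alcohols and of lysine breakdown.

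The input libraries held 26152651 to 45144392 expected counts and the pull-down libraries 16883500 to 23658012. Each enzyme had an expected count of at least 83 in every library. The coefficient of variation between replicates was 0.138 over all tested genes. Keratins that mark bronchial epithelium were abundant in the inputs, with 431.5 to 497 TPM (transcript abundance scaled for length and depth) for KRT7 and 108 to 179 TPM for KRT5. The epithelial genes EPCAM (10.9 to 13.4 TPM) and CDH1 (8.82 to 11.2 TPM) were lower. The line is a single immortalised cell type, which limits it as a model of airway tissue. The defining markers of ciliated cells (FOXJ1, DNAI1), secretory cells (SCGB1A1, MUC5AC) and the leukocyte markers PTPRC and CD3E were at or near 0, with no more than 7 counts in any input. CD68, also a leukocyte marker, was detected at 1.46 to 2.13 TPM, and the endothelial markers PECAM1 and VWF had no more than 0.06 TPM. The mesenchymal gene VIM was also abundant, at 173 to 229 TPM, and FN1 had 50.9 to 62.1 TPM. The mesenchymal genes CDH2 (3.31 to 4.05 TPM) and COL1A1 (0.92 to 1.3 TPM) were much lower. In such bulk RNA a smaller amount per cell and fewer cells with the transcript cannot be told apart.

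Sequence is shown for 3 of the enzymes because the antibody is directed at a modified guanine: ESD and SHMT2 are the enzymes at the lower and upper end of pull-down recovery in clean air, and ADH5 is the partner of ESD in the glutathione route. Each line is the first 90 bases of the longest coding exon of the canonical isoform (GENCODE 44, GRCh38), read 5′ to 3′ on the coding strand, with guanines in capitals.
ESD, exon 9 of 10, chr13:46777534-46777623, minus strand: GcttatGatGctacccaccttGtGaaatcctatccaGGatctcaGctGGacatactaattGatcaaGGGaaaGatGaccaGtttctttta
SHMT2, exon 4 of 12, chr12:57231713-57231802, plus strand: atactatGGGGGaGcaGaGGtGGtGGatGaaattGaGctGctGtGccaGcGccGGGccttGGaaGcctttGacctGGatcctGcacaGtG
ADH5, exon 6 of 9, chr4:99076463-99076552, minus strand: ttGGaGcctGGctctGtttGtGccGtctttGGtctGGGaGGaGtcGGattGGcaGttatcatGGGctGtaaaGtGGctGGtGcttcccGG
The ESD stretch holds 17 guanines, the SHMT2 stretch 33 and the ADH5 stretch 34. Over the whole coding sequence guanine made up 20.9% in ESD, 29.4% in SHMT2 and 27.3% in ADH5, against a median of 26.6% over 13722 tested protein-coding genes.

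By GENCODE 44 on GRCh38 the glutathione route genes lie at chr4:99070978-99088801 (ADH5) and chr13:46771256-46797420 (ESD), both on the minus strand. The mitochondrial enzymes ALDH2 (chr12:111766887-111817532), SHMT2 (chr12:57229573-57234935) and MTHFD2 (chr2:74186172-74217565) and the cytosolic MTHFD1 (chr14:64388031-64463457) lie on the plus strand, as does ALDH3A2 (chr17:19648136-19685760). ALDH9A1 (chr1:165662216-165698562), ALDH7A1 (chr5:126531200-126595362) and ALDH1L2 (chr12:105019784-105107643) lie on the minus strand.

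The first question was how strongly each enzyme is expressed at baseline. Levels between genes were compared in TPM, which accounts for transcript length, and in the inputs alone, because RN7SL1, the RNA of the signal recognition particle, took 18.0% to 19.8% of the TPM total in inputs and 28.9% to 31.6% in pull-downs. ADH5 was the most abundant of the enzymes at 56.2 ± 0.940 TPM in CA_IN (SD, n = 2) and ranked 663 of the 18242 tested genes. SHMT2 (38.9 ± 6.00 TPM), MTHFD2 (38.5 ± 1.53 TPM) and ESD (35.9 ± 3.23 TPM) followed. The 4 input libraries of neighbouring genes overlapped among SHMT2, MTHFD2 and ESD, so their order is not resolved, whereas every input value of ADH5 (52.6 TPM or more) lay above every value of SHMT2 (43.1 TPM or less). ALDH7A1 (25.0 ± 0.177 TPM) and MTHFD1 (21.9 ± 1.24 TPM) overlapped with each other and lay below ESD. Next came ALDH3A2 (16.3 ± 0.276 TPM) and ALDH9A1 (10.4 ± 1.38 TPM), each separate from its neighbours. ALDH2 was low at 2.87 ± 0.460 TPM, and ALDH1L2 was lowest at 0.360 ± 0.0141 TPM, ranking 13182. Both enzymes of the glutathione route were therefore more abundant than every aldehyde dehydrogenase in this list in every input library.

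The second question was whether formaldehyde changed these transcripts in input RNA after the recovery. None of the 10 enzymes passed the test between FA_IN and CA_IN, and all differences were small. By edgeR's quasi-likelihood test with Benjamini-Hochberg adjustment over all genes, 0 enzymes were called (0 also at an unadjusted p under 0.05, and 0 with DESeq2), against 1 called gene or 0.00548% of all tested genes. The log2 fold changes lay between -0.07 (ALDH9A1) and 0.17 (MTHFD1), with a median of 0.09 beside 0.02 over all genes, and adjusted p of at least 0.945.

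ADH5 had 178 and 198 CPM (counts scaled to a common library size, normalised by the trimmed mean of M values, TMM) in CA_IN and 187 and 213 in FA_IN. The 2 groups overlapped, and the fold change was 1.06 with a 95% interval of 0.902 to 1.25. ESD had 93.4 and 109 CPM in CA_IN and 105 and 117 in FA_IN, a fold change of 1.10 (95% interval 0.922 to 1.31). Thus neither step of the glutathione route showed a rise or fall beyond the spread between replicates.

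MTHFD1, which attaches formate to tetrahydrofolate, was the only enzyme whose input groups did not overlap, with 119.7 and 123 CPM in CA_IN and 128 and 145 in FA_IN. Its fold change was 1.12 (95% interval 0.971 to 1.3, adjusted p = 0.945). A separation of the 2 groups was common, since it held for 33.9% of all tested genes, so 1 of 10 is not above the background. SHMT2 had 168 and 147 CPM in CA_IN and 178 and 157 in FA_IN, and MTHFD2 195 and 216 against 199 and 221. These values interleave. ALDH2 had 14.2 and 17.5 CPM in CA_IN and 13.8 and 16.6 in FA_IN, with a 95% interval of 0.686 to 1.35 for the fold change, the widest of the 10 on the log2 scale. The intervals of the 10 enzymes reached at most 1.42-fold upward, for ALDH1L2, so larger increases lie outside them.

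**Figure D1:**
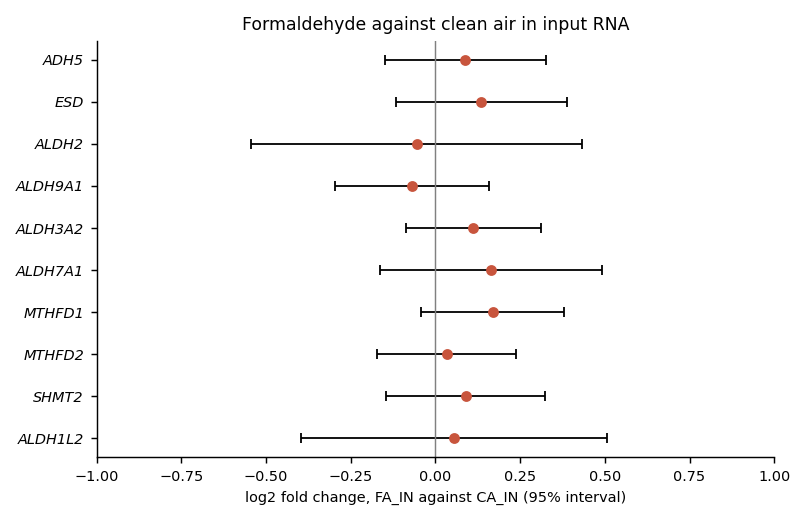
The log2 fold change between FA_IN and CA_IN is plotted for each enzyme with its 95% interval (2 libraries a group). All 10 intervals cross 0, and the points lie between -0.07 and 0.17.

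The third question was which of these transcripts were recovered more or less in the 8-oxoG pull-down than in the input. ESD was lower in the pull-down in both treatments, and it was the only enzyme of the 10 called in either one. In clean air ESD had 93.4 and 109 CPM in the inputs and 45.4 and 51.0 CPM in the pull-downs. After formaldehyde it had 105 and 117 CPM in the inputs and 57.9 and 63.5 CPM in the pull-downs. Every pull-down CPM lay below every input CPM. CPM gives recovery relative to the other RNAs of a library, not an absolute amount. The fold of pull-down over input was 0.477 in clean air (95% interval 0.399 to 0.571, adjusted p = 0.00126) and 0.547 after formaldehyde (95% interval 0.458 to 0.654, adjusted p = 0.00509). Genes lower in the pull-down made up 1.77% of all tested genes in clean air and 1.47% after formaldehyde, and 1 of the 10 enzymes was among them in each. Genes higher in the pull-down made up 0.148% and 0.0329%, and none of the enzymes was among them. In the comparison after formaldehyde ESD lost its call when FA_IN replicate 3 or FA_IP replicate 1 was left out (adjusted p = 0.0702 each), with log2 fold changes of -0.78 and -0.81.

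**Figure D2:**
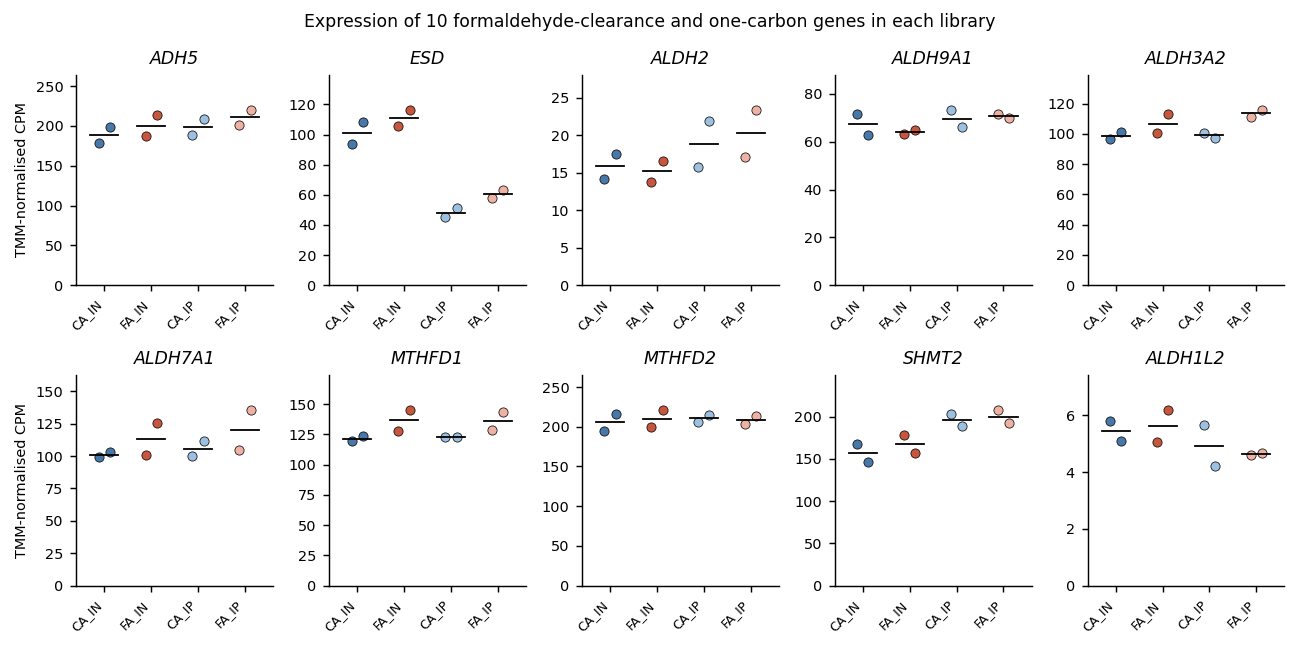
TMM-normalised CPM of each enzyme is plotted for each library, with replicate 1 on the left and replicate 3 on the right of a group and a bar at the group mean (n = 2). The ESD pull-down libraries (45.4 to 63.5 CPM) all lie below its input libraries (93.4 to 117 CPM), and the pull-down libraries of SHMT2 (189 to 208 CPM) lie above its inputs (147 to 178 CPM).

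SHMT2, which transfers the one-carbon unit of serine to folate in mitochondria, lay on the other side. It had 168 and 147 CPM in CA_IN and 204 and 189 CPM in CA_IP. After formaldehyde the values were 178 and 157 CPM in FA_IN and 208 and 192 CPM in FA_IP. The pull-down groups did not overlap with their inputs. The fold was 1.25 in clean air (adjusted p = 0.223) and 1.19 after formaldehyde (adjusted p = 0.489), so SHMT2 was not called in the model that takes the libraries as independent. Because input and pull-down came from the same RNA pool, a model with the pool as a block was fitted as well. In it SHMT2 was higher in the pull-down in both treatments, by 1.25-fold (adjusted p = 0.000977) and 1.2-fold (adjusted p = 0.00954). That model also called 11.6% of all tested genes higher and 5.85% lower in clean air, and 5.45% higher and 4.6% lower after formaldehyde.

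ALDH2 had 14.2 and 17.5 CPM in CA_IN against 15.8 and 21.9 in CA_IP, and 13.8 and 16.6 CPM in FA_IN against 17.1 and 23.4 in FA_IP. Within each pool the pull-down was the higher fraction. The fold was 1.19 in clean air (adjusted p = 0.732) and 1.33 after formaldehyde (adjusted p = 0.671), neither called. With the pool as a block the fold after formaldehyde was 1.33 (adjusted p = 0.00518) and the fold in clean air 1.18 (adjusted p = 0.0719). ESD stayed the most depleted enzyme in the blocked model, at 0.478-fold (adjusted p = 5.41e-11) and 0.547-fold (adjusted p = 2.08e-09). No call among the other 7 enzymes was made with or without the block.

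ADH5, the first enzyme of the glutathione route, stood in contrast to ESD. It had 178 and 198 CPM in CA_IN and 189 and 209 in CA_IP, and 187 and 213 CPM in FA_IN and 201 and 220.3 in FA_IP. The fold of pull-down over input was 1.06 (95% interval 0.895 to 1.24) in clean air and 1.05 (95% interval 0.893 to 1.24) after formaldehyde. Neither group of its pull-down libraries was separated from the inputs.

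None of the remaining folate enzymes and aldehyde dehydrogenases was called. MTHFD1 had 123 and 123 CPM in CA_IP and 129 and 143 in FA_IP, beside 119.7 and 123 CPM in CA_IN and 128 and 145 in FA_IN. MTHFD2 had 206 and 215 CPM in CA_IP and 204 and 213 in FA_IP. Their log2 fold changes of pull-down over input lay between -0.01 and 0.03. ALDH9A1, which makes the precursor of carnitine, had 71.6 and 63.0 CPM in CA_IN, 73.4 and 65.9 in CA_IP, 63.3 and 65.0 in FA_IN and 71.7 and 69.7 in FA_IP. ALDH3A2, the fatty aldehyde dehydrogenase, had 96.7 and 101 CPM in CA_IN, 100.5 and 97.6 in CA_IP, 101 and 113 in FA_IN and 111 and 116 in FA_IP. ALDH7A1, an enzyme of lysine breakdown, had 99.3 and 103 CPM in CA_IN, 100.2 and 112 in CA_IP, 101 and 126 in FA_IN and 104 and 136 in FA_IP. Of these 3 dehydrogenases only ALDH9A1 after formaldehyde had pull-down libraries apart from its inputs, and the log2 fold changes of the 3 lay between 0.00 and 0.14. ALDH1L2, which releases formyl groups from folate in mitochondria, had 5.79 and 5.08 CPM in CA_IN, 5.66 and 4.2 in CA_IP, 5.07 and 6.19 in FA_IN and 4.59 and 4.68 in FA_IP. It had log2 fold changes of -0.14 in clean air and -0.28 after formaldehyde, with standard errors of 0.20 and 0.21, and neither was called.

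Pool by pool, 5 enzymes (ADH5, ALDH2, ALDH9A1, ALDH7A1 and SHMT2) were higher in the pull-down in all 4 pools, and ESD and ALDH1L2 were lower in all 4. Among all tested genes 23.4% were higher and 17.5% lower in all 4 pools. The log2 difference of ESD was -1.04 and -1.09 in the clean air pools and -0.86 and -0.87 in the formaldehyde pools. For SHMT2 it was 0.28 and 0.36, and 0.22 and 0.29. The 4 differences of each of these genes lay close together, while those of ALDH3A2, MTHFD1 and MTHFD2 fell on both sides of 0. The 2 pull-down groups did not overlap with their inputs for 2 enzymes in clean air (ESD and SHMT2) and for 5 after formaldehyde (ESD, ALDH2, ALDH9A1, SHMT2 and ALDH1L2), against 41.0% and 37.4% of all tested genes.

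**Figure D3:**
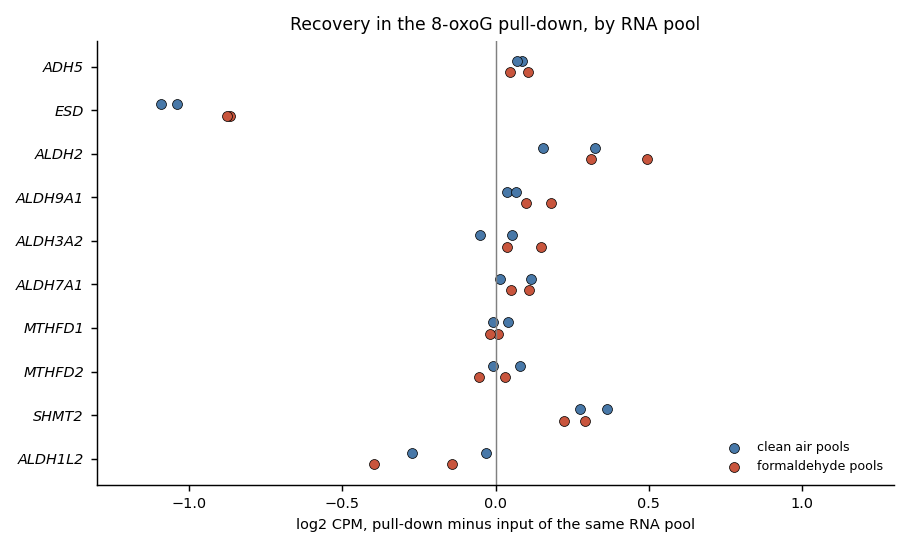
Each point is the log2 CPM of the pull-down minus that of the input from the same RNA pool, with 2 clean air and 2 formaldehyde pools for each enzyme. ESD lies between -1.09 and -0.86, SHMT2 between 0.22 and 0.36, and MTHFD1 and MTHFD2 lie on both sides of 0.

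Whether formaldehyde altered recovery in the pull-down was tested as an interaction of treatment and pull-down. No enzyme was called (0 at an unadjusted p under 0.05, and 0 with DESeq2), and edgeR called 0% of all tested genes (195 genes at an unadjusted p under 0.05, and 3 called with DESeq2). The depletion of ESD was 0.20 smaller on the log2 scale after formaldehyde, with a 95% interval of -0.17 to 0.56, so a moderate difference in either direction cannot be told from none. The comparison of inputs shares its CA_IN and FA_IN libraries with the pull-down comparisons.

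ESD has the shortest transcripts of the 10. Its length, weighted by the expected counts of its isoforms in the inputs, was 1264 nt, followed by ADH5 (1744 nt) and SHMT2 (1908 nt), against a median of 2478 nt over all tested genes. Over 18238 genes the Spearman correlation of length with the log2 fold change of pull-down over input was -0.019 in clean air and -0.038 after formaldehyde. Of the genes under 500 nt 26.03% were lower in the pull-down in clean air and 19.6% after formaldehyde. Of the 2008 genes between 1000 and 1500 nt, which include ESD, 1.99% and 1.54% were lower, beside 1.77% and 1.47% over all genes. Their median log2 fold changes were 0.07 and 0.04. Between 500 and 1000 nt 6.90% and 6.44% were lower. Between 1500 and 2000 nt, the class of ADH5 and SHMT2, 0.369% and 0.205% were. The share called lower thus fell with length, while the median log2 fold change rose and then fell. The medians were -0.88 and -0.76 under 500 nt, 0.11 and 0.09 between 1500 and 2000 nt and -0.07 and -0.08 from 5000 nt. A rank correlation near 0 does not show such a pattern. Within the class of 1000 to 1500 nt 2.44% of genes in clean air and 4.78% after formaldehyde had a lower fold change than ESD.

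Recovery also varied with base composition. Over the 13722 genes with a coding sequence, the Spearman correlation of coding guanine share with the log2 fold change of pull-down over input was 0.571 in clean air and 0.459 after formaldehyde, given as a description across genes of shared libraries. The correlation with the share of guanine plus cytosine was 0.561 and 0.420. Genes with under 22% guanine had a median log2 fold change of -0.16 in clean air and -0.11 after formaldehyde, and genes with 30% or more had 0.25 and 0.17. ESD had the lowest coding guanine share of the 10, 20.9%, and 6.28% of the 13722 genes had a lower one. ALDH2 (31.0%) and SHMT2 (29.4%) had the highest shares. Over the 10 enzymes the Spearman correlation with guanine share was 0.964 in clean air and 0.745 after formaldehyde, and that with guanine plus cytosine was 0.83 and 0.782.

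Within the class of like length and composition, most genes were less depleted than ESD. Among the 109 tested genes of 1000 to 1500 nt with under 22% coding guanine, the median log2 fold change was -0.25 in clean air and -0.20 after formaldehyde. In that class 11 genes (10.1%) and 9 genes (8.26%) were called lower, and 8 and 12 genes had a lower fold change than ESD. The part that length and base composition play in the recovery of any of these transcripts was not tested.

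**Figure D4:**
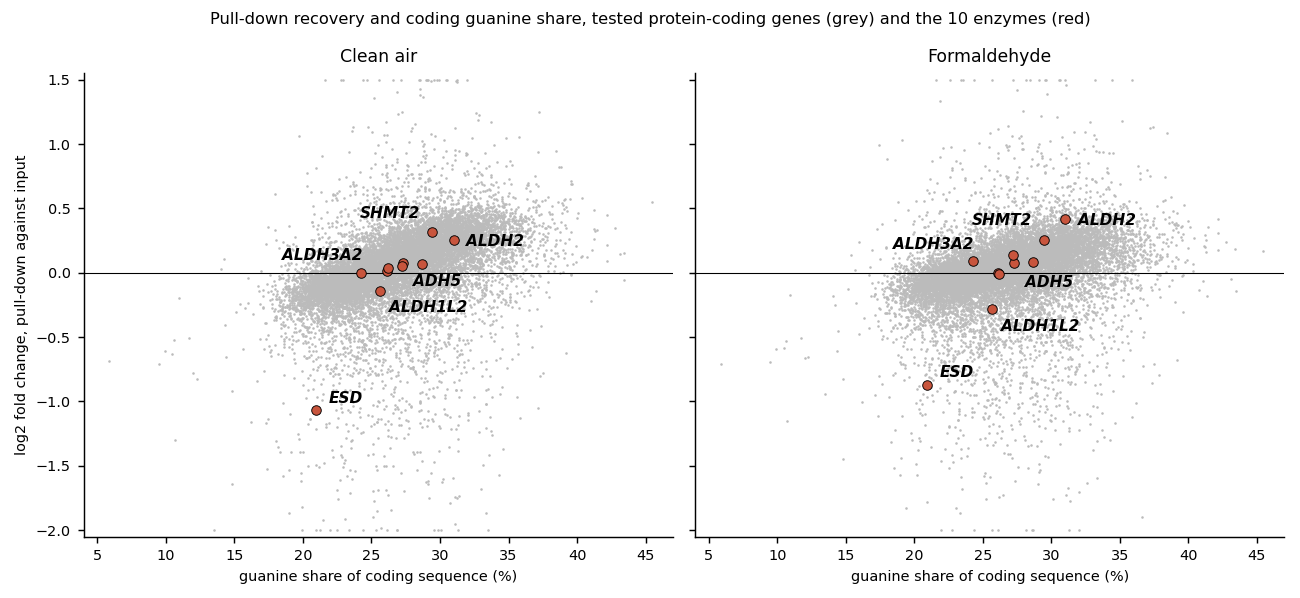
The log2 fold change of pull-down against input is plotted against the guanine share of the canonical coding sequence for 13722 tested protein-coding genes (grey) and the 10 enzymes (red), in clean air (left) and after formaldehyde (right). Values beyond the vertical range are drawn at its edge. ESD lies at 20.9% guanine below all other enzymes in both panels, and SHMT2 (29.4%) and ALDH2 (31.0%) lie highest.

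The isoforms of each enzyme were compared next. RSEM divides reads shared by isoforms among them, so isoform values also carry the error of that division. Shares are of expected counts, which are not scaled for length, so they favour longer isoforms over shorter ones. Isoforms with at least 5% of their gene's expected count numbered 33 over the 10 enzymes. No isoform of an enzyme was called between FA_IN and CA_IN (2 of 94 at an unadjusted p under 0.05, and 0 with DESeq2), as for 0% of all tested transcripts. Isoform use, the share of a gene's reads that each isoform takes, differed between the inputs for 0.601% of 11474 testable genes and for none of the enzymes (smallest unadjusted p = 0.298, for SHMT2, and adjusted p = 1).

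ESD is carried by 1 main isoform. ENST00000378720 (1192 nt, chr13:46771256-46797161, 10 exons) took 90.5% of the gene's expected count in CA_IN, 92.0% in FA_IN, 86.2% in CA_IP and 86.8% in FA_IP. It was the only enzyme isoform called lower in the pull-down in clean air, with a log2 fold change of -1.17 ± 0.13 (SE, adjusted p = 0.0451), against 0.227% of all tested transcripts. After formaldehyde its log2 fold change was -0.97 ± 0.13 (adjusted p = 0.0983), while 0.137% of transcripts were called lower. The call in clean air was lost when any 1 of the 8 libraries was left out. The longer coding isoform ENST00000471867 (2410 nt) took 7.03% in CA_IN, 5.67% in FA_IN, 9.84% in CA_IP and 9.05% in FA_IP. Its log2 fold changes were -0.62 ± 0.20 in clean air and -0.21 ± 0.20 after formaldehyde, neither called (adjusted p = 0.588 and 0.995). The share of the longer isoform was higher in all 4 pull-downs (8.57% to 11.1%) than in any input (5.56% to 7.38%). It rests on 90.6 to 142 expected counts in the pull-downs. Isoform use was tested only between the inputs, so this difference was not tested. How many other isoforms were apart in this way was not counted.

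For ADH5, the coding isoform ENST00000296412 (2615 nt) took 37.0% of the expected count in CA_IN and 36.2% in FA_IN, and the shorter ENST00000626055 (1299 nt) took 39.4% and 42.0%. As mean TPM shares over the 8 libraries, ENST00000296412 had 17.1% and ENST00000626055 42.9%. A transcript with a retained intron, ENST00000512621, took 10.4% of the expected count in CA_IN and 6.89% in FA_IN. Its share was 11.4% and 9.28% in the CA_IN libraries and 7.02% and 6.76% in the FA_IN libraries. These did not overlap, but the input shares were also apart for 18 of the 33 isoforms with at least 5%. The same count over all tested transcripts was not made, so how common such a separation is cannot be said. The log2 fold change of ENST00000512621 between the inputs was -0.49 ± 0.29 (adjusted p = 1).

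The aldehyde dehydrogenases differed in how many isoforms they used. ALDH9A1 had a single isoform above the 5% limit, ENST00000354775, with 96.1% to 99.3% of its expected count in every library. In ALDH2 the largest share went to ENST00000548536, annotated as a target of nonsense-mediated decay, with 40.0% in CA_IN, 47.6% in FA_IN, 42.4% in CA_IP and 53.3% in FA_IP. The coding isoform ENST00000261733 (9569 nt) took 37.7%, 32.6%, 30.7% and 25.95%, and ENST00000416293 took 20.3%, 17.0%, 23.3% and 18.5%. As mean TPM shares over the 8 libraries, ENST00000548536 had 54.0%, ENST00000416293 26.6% and ENST00000261733 6.24%. ALDH3A2 was spread over 6 isoforms, led by ENST00000395575 with 13.3% to 44.4%, followed by ENST00000582991 (14.5% to 20.2%), ENST00000339618 (6.15% to 14.9%), ENST00000630662 (6.10% to 11.3%) and ENST00000581518 (3.03% to 7.86%). The replicates disagreed on ENST00000579855 of ALDH3A2, which took 35.9% of the expected count in FA_IN replicate 3 but 9.34% in FA_IN replicate 1, and 0% in CA_IP replicate 3. ALDH7A1 had 24 tested isoforms, of which ENST00000637782 was the main one with 43.7% to 58.7%, while ENST00000458249, ENST00000409134 and ENST00000553117 of ALDH7A1 each took between 2.67% and 13.4%.

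Among the folate enzymes, MTHFD1 had 81.4% of its expected count in CA_IN and 85.7% in FA_IN on ENST00000216605, and ENST00000555709 took 5.75% to 8.04%. As mean TPM shares over the 8 libraries, ENST00000216605 had 59.2% and ENST00000555709 24.2%. MTHFD2 had 43.8% to 45.9% on ENST00000394053 (4456 nt) and 28.6% to 33.4% on ENST00000470592, annotated as a target of nonsense-mediated decay, in all 8 libraries. ENST00000409804 and ENST00000409601 of MTHFD2 took between 9.0% and 15.5%. In TPM the order of the first 2 was reversed, with mean shares over the 8 libraries of 19.7% for ENST00000394053 and 49.8% for ENST00000470592. SHMT2 was divided over 5 isoforms, led by ENST00000414700 with 28.5% in CA_IN and 23.8% in FA_IN. ENST00000557487, ENST00000556825 and ENST00000557433 of SHMT2 each took between 13.3% and 23.1%. ENST00000553474 of SHMT2 was listed at 0 in CA_IN replicate 1 and at 216.55 expected counts in CA_IN replicate 3. ALDH1L2 had 61.6% to 100% on its coding isoform ENST00000258494, and ENST00000549335 and ENST00000552270 took 0% to 26.9%. ENST00000556825 and ENST00000557433 of SHMT2, ENST00000555709 of MTHFD1 and ENST00000552270 of ALDH1L2 are also annotated as targets of nonsense-mediated decay. The same holds for ENST00000582991 of ALDH3A2 and ENST00000458249 of ALDH7A1.

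**Figure D5:**
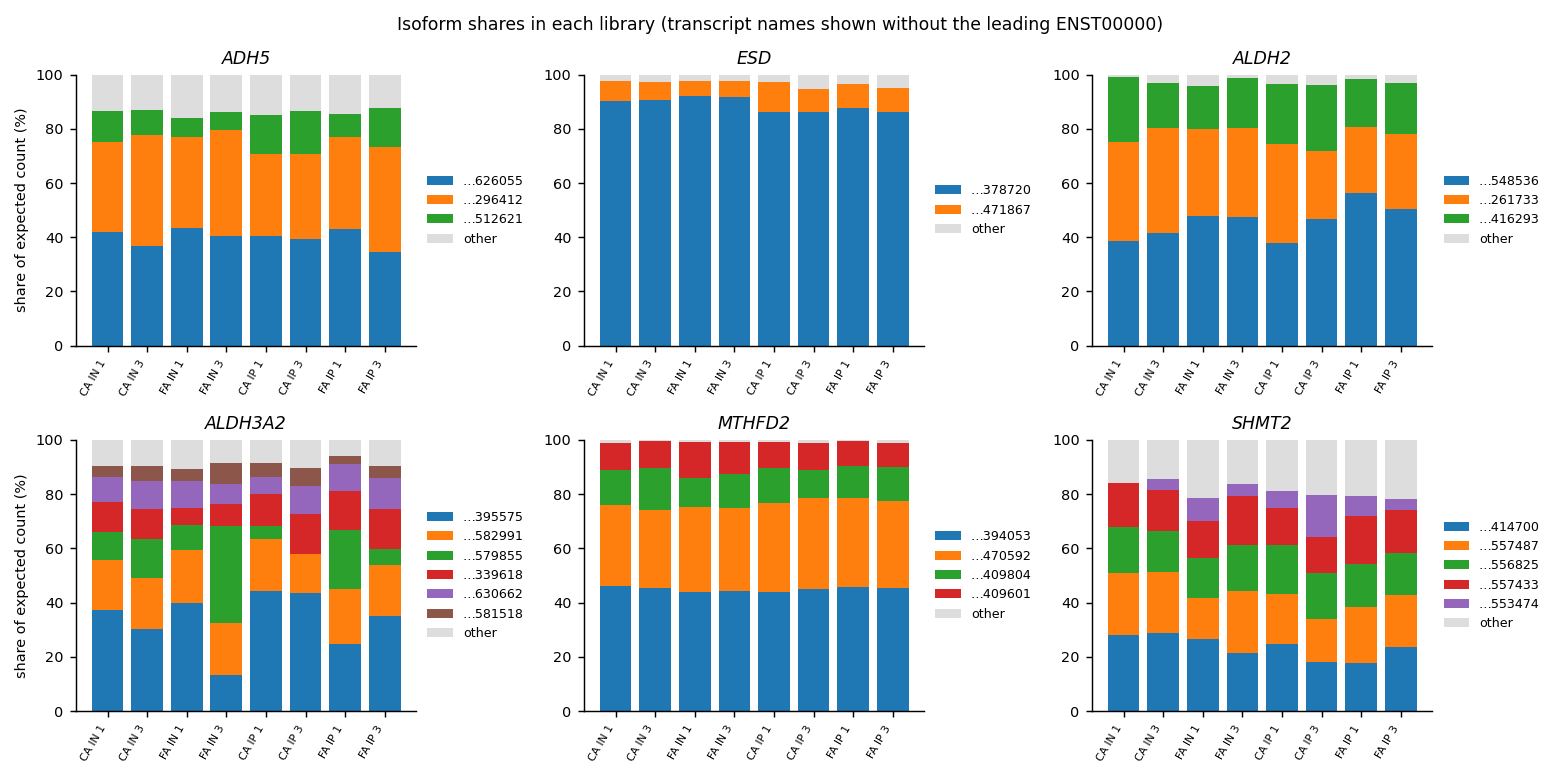
Bars show the share of a gene's expected count on each isoform with at least 5% on average, by library, for 6 enzymes, with the remaining isoforms in grey. ESD has 86.0% to 92.1% on its main isoform in all 8 libraries, whereas ENST00000579855 of ALDH3A2 ranges from 0% to 35.9%.

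Some of these gene sums could hold reads of other genes, because the RSEM command given in the study's methods sets no strand option. The exons of ADH5, ESD, ALDH7A1 and ALDH3A2 overlapped no exon of another gene in GENCODE 44. MTHFD2 shared 11.6% of its exonic bases with SLC4A5 on the opposite strand, whose counts came to 0.725% of those of MTHFD2. MTHFD1 shared 178 exonic bases with ZBTB25 on the opposite strand, whose counts came to 8.6% of those of MTHFD1. SHMT2 shared 33 exonic bases with NDUFA4L2, whose counts came to 0.594% of those of SHMT2. ALDH1L2 shared 131 bases with WASHC4, whose counts were 1286% of those of ALDH1L2, so the low level of ALDH1L2 is uncertain. The 16 pseudogenes named after the enzymes held at most 9.07 expected counts in any library.

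The pattern of ADH5 over the 8 libraries was most like that of LDHB (Pearson r = 0.989 in log2 CPM, n = 8), followed by SHMT1 (r = 0.988), MRPL3 (r = 0.985), ROM1 (r = 0.983) and FDFT1 (r = 0.983). The range behind these values was narrow, since ADH5 spanned 178 to 220.3 CPM.

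Other genes of the same pathways were examined from 4 lists of 45 genes, of which 37 were tested. None was called in any comparison by edgeR's test over all 8 libraries without a block. By edgeR's unadjusted p, 7 genes were under 0.05 in the clean air pull-down, 5 in the formaldehyde pull-down, 0 between the inputs and 0 for the interaction. Over all 18242 tested genes these counts were 2294, 1660, 611 and 195. DESeq2 called 2 in the clean air pull-down and 0 elsewhere. The median log2 fold change of the 37 between the inputs was 0.10, beside 0.02 over all genes.

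In the folate list (19 of 20 tested) the 2 with the smallest p in the clean air pull-down were FPGS and GGH, which add and remove the glutamate tail of folates. FPGS had 40.3 and 38.9 CPM in CA_IN and 52.8 and 58.6 in CA_IP, a log2 fold change of 0.49 ± 0.10 (adjusted p = 0.0521). GGH had 83.0 and 86.2 CPM in CA_IN and 65.8 and 64.2 in CA_IP, a log2 fold change of -0.38 ± 0.09 (adjusted p = 0.0695). Neither group of libraries overlapped with its input in clean air, as for 41.0% of all tested genes. With the pool as a block FPGS was higher (adjusted p = 6.39e-05) and GGH lower (adjusted p = 0.000567) in the clean air pull-down, and after formaldehyde FPGS was higher (adjusted p = 0.00258) and GGH lower (adjusted p = 0.0498). Those 2 were also the 2 called by DESeq2. Between the inputs MTFMT, which formylates the mitochondrial initiator tRNA, had the largest difference of the list, with a log2 fold change of -0.31 ± 0.15 (adjusted p = 0.945).

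In the serine list PHGDH, the first enzyme of serine synthesis, had 83.2 and 69.5 CPM in CA_IN and 92.5 and 83.6 in FA_IN, a log2 fold change of 0.21 ± 0.10 (adjusted p = 0.945). In the glutathione supply list GSS, glutathione synthetase, had 101 and 104 CPM in CA_IN and 117 and 116 in FA_IN, and its log2 fold change was 0.19 ± 0.09 (adjusted p = 0.945). Both sets of libraries were separated, PHGDH only by 83.2 against 83.6 CPM, as were those of 33.9% of all tested genes. Neither gene passed the test.

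In the list of other aldehyde and alcohol dehydrogenases, catalase and CYP2E1, 11 of 18 genes were tested. Between the inputs 10 of the 11 had a log2 fold change above 0 (median 0.13, beside 0.02 over all genes), none of them called. The genes share the same libraries, so they are not independent, and a joint rise was not tested. The largest was that of ALDH4A1, at 0.22 ± 0.16. The 6 other alcohol dehydrogenases listed (ADH1A, ADH1B, ADH1C, ADH4, ADH6 and ADH7) held no more than 6 expected counts in any library and were not tested. ADH5 was thus the only alcohol dehydrogenase of these 7 above the count limit in these cells. ALDH16A1 had 37.2 and 40.5 CPM in CA_IN and 47.6 and 57.0 in CA_IP, a log2 fold change of 0.43 ± 0.12 (adjusted p = 0.148, and 0.000288 with the pool as a block). With the pool as a block 9 of the 37 were higher and 1 lower in clean air, where 11.6% and 5.85% of all tested genes were. After formaldehyde 4 were higher and 1 lower, beside 5.45% and 4.6% of all tested genes. They were PHGDH, FPGS, ALDH16A1, SLC19A1 and GGH after formaldehyde, and in clean air also ALDH3B1, ALDH18A1, GSS, ALDH3A1 and ALDH4A1.

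The other pathway genes with the 2 smallest p of their list in a comparison showed small differences, none of them called without the block. MTHFD1L, which makes formate in mitochondria, had a log2 fold change of 0.20 ± 0.12 between the inputs. ALDH3B1 had 0.43 ± 0.16 in the clean air pull-down and ALDH18A1 0.19 ± 0.08 in the formaldehyde pull-down. PSPH and PSAT1 of serine synthesis and GSR and GCLC of glutathione supply stayed between -0.09 and 0.12 where they were among the smallest p.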

How the data were processed

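Input and 8-oxoG pull-down RNA of BEAS-2B cells was sequenced in 8 libraries, 2 per group. According to the study's methods and the submitters' processing notes, the authors trimmed reads with cutadapt, aligned them to GRCh38 (Ensembl 94) with STAR 2.6.0a and quantified transcripts with RSEM 1.2.25. The RSEM command given sets no strand option. The deposited tables hold RSEM expected counts, TPM values (scaled by the authors for length and depth) and effective lengths per transcript. The deposited DESeq2 tables hold log2 fold changes and p-values of the authors' comparisons. They were not used, and those named for the 2 pull-downs are identical. The sample characteristics and the study's methods name the same antibody clone, and the extraction protocol in the labels names another.

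Expected counts, which the authors did not normalise, were summed by gene and rounded. Symbols and gene models came from GENCODE 44, which named 58207 of 58735 gene IDs. TPM was summed by gene. Genes reaching a rounded count of 10 in 2 or more libraries entered edgeR's quasi-likelihood test (version 4.0.16, TMM, prior count 0.125, all 8 libraries, R 4.3.3) with Benjamini-Hochberg adjustment at 0.05. Isoform use was tested with edgeR's diffSpliceDGE on the transcript model. Pool-wise log2 CPM used a prior count of 2. The 95% intervals use the quasi-likelihood standard error. The edgeR p-values rest on the spread between replicates, pooled over the 4 groups of 2 and drawn toward that of other genes. DESeq2 1.42.0 and the other alternatives are given below. The gene-level edgeR test was checked on simulated data. That check covered FA_IN against CA_IN only, with planted changes larger than those of the enzymes, so small changes lie outside it.

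Input and pull-down were split from the same RNA pool, so they are paired by source. Replicate differences correlated across genes at r = 0.380 between CA_IN and CA_IP and 0.246 between FA_IN and FA_IP. Treatments share only a replicate number, taken from the file names. Across treatments the replicate differences correlated at r = 0.203 to 0.283. The enzymes are all named, as are isoforms with 5% or more of their gene and, per pathway list and comparison, called genes and the 2 with the smallest p. The enzymes and lists were chosen with earlier results of these data known, and the analyses of length and base composition were added after the data were seen.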

Additional observations from a re-analysis of the deposited data

How the results depend on the processing

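The depletion of ESD kept its direction in all 16 alternatives of each pull-down comparison, with log2 fold changes of -1.17 to -0.92 in clean air (adjusted p up to 0.0177) and -0.93 to -0.70 after formaldehyde (adjusted p up to 0.0702). All 16 scale counts to the library. In TPM ESD had 33.6 and 38.2 in CA_IN and 30.5 and 32.1 in CA_IP. After formaldehyde ESD had 33.6 and 42.2 TPM in FA_IN and 34.0 and 40.2 in FA_IP, which overlap. ADH5 had 52.6 and 64.1 TPM in FA_IN and 104 and 116 in FA_IP. With 1 library left out at a time, 0 to 1 enzymes were called after formaldehyde, and 0 without FA_IN replicate 3 or FA_IP replicate 1. The count of enzymes called rose from 1 to 2 in clean air and from 1 to 3 after formaldehyde with the RNA pool as a replicate block or with the replicate number as a replicate block, SHMT2 joining in both and ALDH2 after formaldehyde. The blocks changed no other call on the enzymes. Between the inputs, ADH5, ESD, ALDH3A2, ALDH7A1, MTHFD1, MTHFD2 and SHMT2 were higher and ALDH2 lower in FA_IN within both replicate numbers. How many of all tested genes moved alike in both was not counted, and only the number ties the treatments. With the replicate number as a block every adjusted p of the enzymes by edgeR was at least 0.295. Library size in place of TMM moved the median of all genes to 0.16 and 0.17 in the pull-down comparisons, called 2 enzymes in clean air (SHMT2 at 0.46, adjusted p = 0.0439, with ESD) and gave 821 genes higher and 336 lower in clean air, against 27 and 322, and 318 and 243 after formaldehyde, against 6 and 268. It turned MTHFD2 between the inputs to -0.0062, ALDH1L2 in clean air to 0.011, and MTHFD1 and MTHFD2 after formaldehyde to 0.16 and 0.16. Other reversals were of values near 0 in the clean air pull-down. ALDH3A2 became -0.032 with no filter, -0.016 with DESeq2, -0.035 with a mean count of at least 50 and -0.0023 with edgeR on 4 libraries. MTHFD1 became -0.017, -0.00043 and -0.019 under the first 3 of these, and MTHFD2 -0.0013 with a mean count of at least 50. The cause was not tested. Leaving out 1 library at a time gave these ranges between the inputs: ADH5 -0.036 to 0.17, ALDH2 -0.22 to 0.096, ALDH9A1 -0.17 to 0.027, ALDH7A1 -0.029 to 0.30, MTHFD2 -0.068 to 0.10, SHMT2 -0.020 to 0.19 and ALDH1L2 -0.12 to 0.17. In the clean air pull-down they were ALDH2 -0.0033 to 0.47, ALDH9A1 -0.052 to 0.15, ALDH3A2 -0.030 to 0.022, ALDH7A1 -0.013 to 0.14, MTHFD1 -0.0065 to 0.027, MTHFD2 -0.038 to 0.10 and ALDH1L2 -0.37 to 0.058. In the formaldehyde pull-down they were ADH5 -0.011 to 0.19, ALDH7A1 -0.099 to 0.27, MTHFD1 -0.085 to 0.11 and MTHFD2 -0.078 to 0.082. None of these was called. Of the isoforms, 0 to 0 were called in the clean air pull-down with 1 library left out, and after formaldehyde 1 with no filter, 1 with the replicate block and 2 with DESeq2 (ENST00000378720 of ESD and ENST00000339618 of ALDH3A2). Over all genes the replicate number as a block, which ties treatments by number only, called 14 higher and 244 lower between the inputs, against 0 and 1, 1235 and 706 in the clean air pull-down and 367 and 586 after formaldehyde. No filter called 21 and 79 between the inputs, 147 and 539 in clean air, 63 and 515 after formaldehyde and 29 and 23 for the interaction, and DESeq2 called 0 and 3, 131 and 378, 18 and 371, and 3 and 0. The pool block called 20 and 5 for the interaction. Genes lower in clean air fell from 322 to 211 without CA_IN replicate 1 and 184 without CA_IP replicate 1, and after formaldehyde from 268 to 119 without FA_IN replicate 1, 143 without FA_IP replicate 1 and 159 without FA_IP replicate 3. Genes higher in clean air fell from 27 to between 4 and 12 with any 1 library left out, and after formaldehyde 1 to 11 were called, against 6. Of the 37 pathway genes, library size called 4 in clean air and 1 after formaldehyde, the replicate number as a block 6 and 1, and a mean count of at least 50 called 1 in clean air (GGH) and 0 after formaldehyde. With 2 libraries a group, changes within the intervals given could not be detected.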
